A study of Mus musculus with 19 samples.

Results

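The 44 genes described here encode sarcomere and Z-disc proteins and the chaperones and ubiquitin ligases that maintain them in muscle. They were chosen by name, with earlier results of these data known, from the 21000 protein-coding genes whose 5-hydroxymethylcytosine (5-hmC) peaks could be read from the series. Each name matched a gene span of the curated RefSeq annotation of mm10. The measure is the percent of a gene's span, from the first to the last base of its transcripts, that lay under 5-hmC peaks in a given list.

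5-hmC was mapped in cardiomyocytes (CMCs) of C57BL/6J mice by immunoprecipitation of hydroxymethylated DNA with an antibody and sequencing (hMeDIP), with 2 biological replicates at each of 4 points. The points were ventricular CMCs of E14.5 embryos, CMCs of neonatal pups aged 1 or 2 days, left ventricular CMCs of adult mice aged 2 months, and CMCs of adult mice subjected to transverse aortic constriction (TAC) 1 week earlier, an operation that narrows the aorta and makes the heart hypertrophy under pressure. No group carried an allele or an agent. The cells were enriched and not sorted, in ways that differed between points. Adult CMCs came from enzymatic perfusion of the heart and settled by gravity. E14.5 and neonatal CMCs came from digested ventricles, by slow centrifugation and repeated plating to let other cells adhere. Stage and way of isolation thus cannot be told apart between the early points and the adult. The DNA of other heart cells remained in part. Fewer cells carrying 5-hmC and less 5-hmC per cell cannot be told apart in such samples. The methods name male mice.

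5-hmC is made from 5-methylcytosine by the TET enzymes, mostly at CpG dinucleotides, and in many tissues lies over the bodies of transcribed genes. The sarcomere is the contractile unit of striated muscle: thin filaments of actin and tropomyosin are anchored with alpha-actinin in the Z-disc, and thick filaments of myosin are held together in the M-band. Around birth CMCs stop dividing and assemble the adult form of this apparatus, and in hypertrophy they add sarcomeres and remodel those they have.

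Stretches from 6 of the genes are shown first, as examples of the peaks described below. Each is a window of 300 bases at the centre of a region covered in both replicates of a point. It is read from the GRCm38 reference along the strand of the gene. Each CpG, the dinucleotide at which TET enzymes mostly act, is in capitals. Apart from the *Capzb* window found in all lists, regions were picked for peaks in both replicates of 1 point and in neither of another. The points were E14.5 and adult for *Tcap*, and neonatal and adult for *Cfl2*, *Bag3* and *Flnc*. They were E14.5 and neonatal for *Fhl2*, and adult and TAC for *Capzb*. The presence and absence of peaks at these points was thus fixed by the choice. The windows of *Tcap*, *Cfl2* and *Bag3* had peaks in both neonatal lists and in no adult or TAC list. The window of *Tcap* lay in a coding exon and held 18 CpGs, that of *Cfl2* spanned intron and coding exon and held 5, and that of *Bag3* lay in an intron and held 7.
Tcap, chr11:98384157-98384456, plus strand: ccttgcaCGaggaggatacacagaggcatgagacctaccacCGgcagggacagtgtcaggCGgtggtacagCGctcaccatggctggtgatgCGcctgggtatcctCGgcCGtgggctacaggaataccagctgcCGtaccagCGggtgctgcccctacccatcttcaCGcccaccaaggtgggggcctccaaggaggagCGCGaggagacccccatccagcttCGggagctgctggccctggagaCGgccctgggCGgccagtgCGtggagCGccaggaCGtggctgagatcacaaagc
Cfl2, chr12:54861195-54861494, minus strand: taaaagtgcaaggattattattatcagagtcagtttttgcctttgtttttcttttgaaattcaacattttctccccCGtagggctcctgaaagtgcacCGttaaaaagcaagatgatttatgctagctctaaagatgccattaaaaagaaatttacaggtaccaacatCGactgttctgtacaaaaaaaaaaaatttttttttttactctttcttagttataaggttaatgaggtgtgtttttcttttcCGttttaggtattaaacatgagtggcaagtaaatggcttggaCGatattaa
Bag3, chr7:128532093-128532392, plus strand: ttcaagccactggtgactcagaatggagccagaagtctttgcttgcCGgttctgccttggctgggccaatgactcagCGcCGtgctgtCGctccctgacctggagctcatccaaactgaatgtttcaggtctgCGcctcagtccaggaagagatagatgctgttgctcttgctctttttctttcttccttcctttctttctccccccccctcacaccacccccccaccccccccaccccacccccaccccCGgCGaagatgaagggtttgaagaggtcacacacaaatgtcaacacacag
The window of *Fhl2* lay in an intron, held 3 CpGs and had a peak in both neonatal lists and in none of the other 6. The window of *Flnc* lay in a coding exon, held 12 CpGs and had a peak in both adult lists and in TAC replicate 1, but in no E14.5 or neonatal list.
Fhl2, chr1:43166056-43166355, minus strand: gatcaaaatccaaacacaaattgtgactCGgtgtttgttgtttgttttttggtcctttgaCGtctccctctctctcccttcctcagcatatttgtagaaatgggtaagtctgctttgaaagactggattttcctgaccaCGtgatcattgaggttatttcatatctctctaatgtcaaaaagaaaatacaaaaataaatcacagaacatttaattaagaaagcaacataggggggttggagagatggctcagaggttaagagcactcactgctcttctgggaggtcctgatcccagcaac
Flnc, chr6:29447441-29447740, plus strand: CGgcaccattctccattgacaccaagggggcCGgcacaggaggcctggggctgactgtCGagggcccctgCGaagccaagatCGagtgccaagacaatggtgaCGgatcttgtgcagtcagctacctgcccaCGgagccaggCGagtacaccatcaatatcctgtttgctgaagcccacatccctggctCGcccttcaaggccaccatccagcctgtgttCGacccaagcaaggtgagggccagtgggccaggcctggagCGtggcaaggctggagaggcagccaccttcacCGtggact
From *Capzb*, an intronic window with 8 CpGs that had a peak in both adult lists and in no other list is shown beside an intronic window with 6 CpGs that had a peak in all 8 lists.
Capzb, adult, chr4:139287271-139287570, plus strand: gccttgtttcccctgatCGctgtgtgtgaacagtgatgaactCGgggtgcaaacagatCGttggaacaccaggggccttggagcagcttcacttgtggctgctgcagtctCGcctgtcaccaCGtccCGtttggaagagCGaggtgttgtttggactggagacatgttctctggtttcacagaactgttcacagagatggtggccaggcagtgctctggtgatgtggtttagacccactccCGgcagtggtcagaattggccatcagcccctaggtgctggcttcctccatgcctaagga
Capzb, all lists, chr4:139249014-139249313, plus strand: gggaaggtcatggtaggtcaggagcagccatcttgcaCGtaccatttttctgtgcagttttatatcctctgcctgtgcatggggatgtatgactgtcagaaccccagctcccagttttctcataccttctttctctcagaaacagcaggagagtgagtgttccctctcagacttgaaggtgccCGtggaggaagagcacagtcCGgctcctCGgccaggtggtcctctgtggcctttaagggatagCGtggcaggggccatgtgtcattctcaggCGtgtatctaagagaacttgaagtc
The CpG content of the windows thus ran from 3 to 18 per 300 bases. The gene spans themselves were near other genes in CpG content. CpGs started at a median of 1.27% of positions over the 44 genes and 1.21% over all protein-coding genes, against 0.826% of the genome. In the peaks inside the 44 genes CpGs started at 1.28% to 1.91% of positions in the 8 lists, and in all peaks at 1.08% to 1.59%.

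The lists held between 104215 and 153637 peaks, which covered 65.1 to 119 Mb of the genome, and they do not give the number of reads behind a peak. TAC replicate 2 stood apart from the other 7 lists. Its peaks covered 3.96% of the average protein-coding gene, against 5.14% to 8.88% in the others, had a mean width of 606 bp against 675 to 801 bp, and had CpGs at 1.08% of positions against 1.31% to 1.59%. The precipitated library was scaled to the input in both TAC lists and in replicate 2 of the neonatal and adult points, by their headers, and the input to the precipitated library in the other 4. Coverage of the 8 CMC marker genes averaged 12.2% to 36.4% per list, that of 8 endothelial markers 3.86% to 10.3% and that of 8 fibroblast markers 0.64% to 2.92%. The cells' marker genes thus had the highest mean coverage of the 3 sets, though single CMC and endothelial markers overlapped. The CMC marker *Pln* was at 0 in all 8 lists. Of the CMC markers, 7 of 8 were lower in both adult lists than in either neonatal list, as were 2 of the endothelial and 1 of the fibroblast markers. Over all protein-coding genes this share was 16.6%. From adult to TAC CMCs 1 CMC marker was lower and 1 higher, while 4 of 8 endothelial markers were lower and 1 higher. Over all protein-coding genes 18.4% were lower and 4.63% higher. The part of other cells in the results below was not tested. The average coverage of all protein-coding genes was 5.42% at E14.5, 7.15% in neonates, 7.71% in adults and 5.25% after TAC, so that the lists differed in level beyond the genes of interest. On the log2 scale this was a shift of 0.40 from E14.5 to neonatal, 0.11 from neonatal to adult, -0.55 from adult to TAC and 0.51 from E14.5 to adult.

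Sarcomere genes were covered by peaks well above the level of genes of their length at each point. Averaged over the 44 genes, coverage was 15.8% and 12.4% in the E14.5 lists, 20.04% and 23.2% in those of neonates, 12.6% and 19.1% in those of adults, and 12.8% and 7.36% after TAC. The neonatal lists were the highest, while the spread of the adult replicates exceeded the difference of their mean from that of E14.5. Protein-coding genes standardised to the same gene lengths, in 20 length classes, had 5.91% and 5.44% at E14.5, 6.90% and 8.30% in neonates, 6.91% and 9.17% in adults and 6.77% and 4.25% after TAC. The ratio of the 44 genes to this level, in which the general level of a list drops out, was 2.48 ± 0.285 (SD, n = 2) at E14.5, 2.85 ± 0.0801 in neonates, 1.95 ± 0.182 in adults and 1.81 ± 0.116 after TAC. By this ratio the E14.5 and neonatal lists, at 2.28 to 2.91, lay above the adult and TAC lists, at 1.73 to 2.08. The nearest were E14.5 replicate 2, at 2.28, and adult replicate 2, at 2.08. *Tcap*, a gene of 1.14 kb, entered these means with 43.8% to 78.4% in the E14.5 and neonatal lists, from 1 peak in each. It was at 0 in the adult and TAC lists. The ratio was not computed without it, so the gap between the lists can rest in part on this gene. Of the 44 genes, 31 had a peak in all 8 lists, as did 34.9% of all protein-coding genes, and 18 lay above the mean of their length class in all 8 lists, as did 9.75% of all genes.

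**Figure D1:**
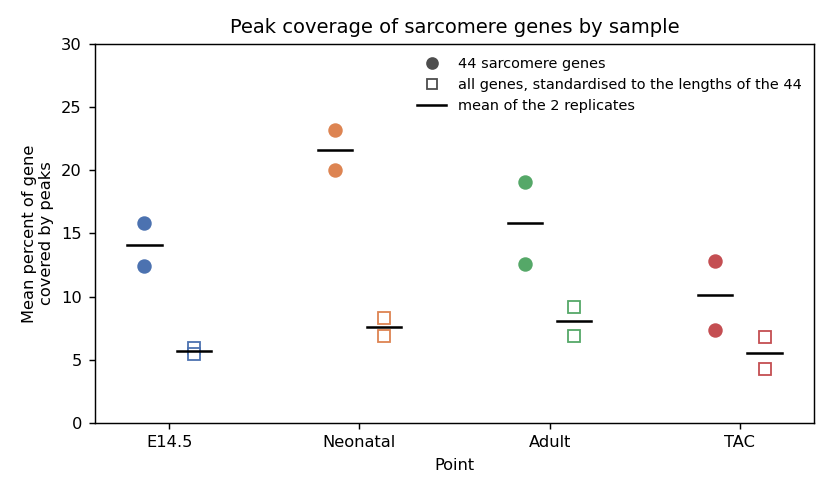
Mean percent of the gene covered by 5-hmC peaks at each point. Filled circles are the 44 sarcomere genes in each replicate, open squares all protein-coding genes standardised to the lengths of the 44, and bars the mean of the 2 replicates; the neonatal circles are the highest, and each circle lies above the square of its own list.

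Against the mean of all genes, here not standardised to gene length, coverage was higher in each part of the gene and in the 10 kb before the start. At E14.5 and in neonatal CMCs the ratio to all genes was highest after the first part of the gene. In adult and TAC CMCs the ratio was lower at the start and in the first part than in the later parts. In the second of 5 equal parts of the gene, the 44 genes had 19.0% ± 2.48 at E14.5, 26.7% ± 7.44 in neonates, 16.2% ± 5.44 in adults and 12.4% ± 5.11 after TAC (SD, n = 2), which was 3.31, 3.47, 2.04 and 2.28 times the mean of all genes. Within 1 kb on each side of the start, they had 9.37% ± 0.200, 9.80% ± 1.42, 5.98% ± 2.47 and 6.81% ± 0.699, or 2.01, 1.85, 1.25 and 1.71 times the mean of all genes. At the start the E14.5 replicates lay between the neonatal replicates, whereas in the last of the 5 parts it was 21.9% ± 1.49 against 12.4% ± 3.43 and did not overlap. Exons of the genes were covered to 16.7% ± 4.60, 25.8% ± 2.78, 24.0% ± 6.24 and 15.1% ± 8.30. Introns, in the 43 genes with enough intronic sequence to be read, were covered to 12.1% ± 1.54, 19.5% ± 1.93, 14.9% ± 4.55 and 9.37% ± 3.27. In the first of the 5 parts the ratio to all genes was 1.98, 2.201, 1.39 and 1.17, which in TAC CMCs was below that at the start. Outside the genes the ratio to all genes was 2.16 to 2.63 in the 10 kb before the start and 1.43 to 1.77 in the 10 kb after the end.

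**Figure D2:**
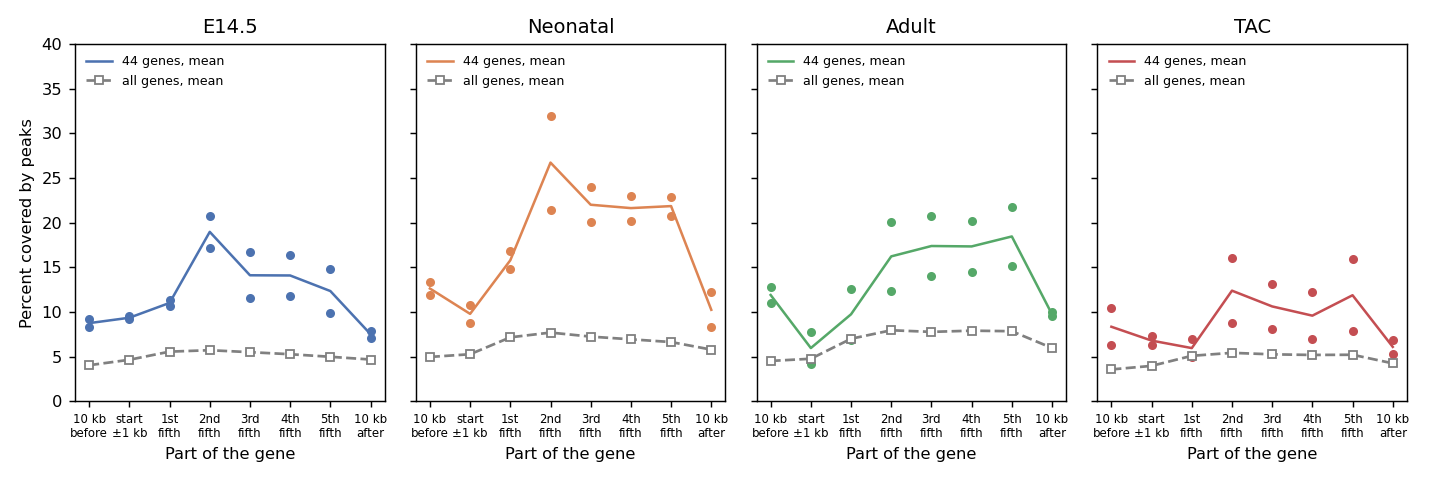
Percent of each part of the gene covered by peaks, from 10 kb before the start to 10 kb after the end, at the 4 points. Dots are the mean of the 44 genes in each replicate, coloured lines their mean, and grey squares the mean of all protein-coding genes; the neonatal line lies highest in each of the 5 parts of the gene.

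Levels differed widely among the 44 genes. The highest mean over the 8 lists, 38.7%, was that of *Des*, which encodes the intermediate filament desmin that ties Z-discs to each other. *Des* (chr1:75360292-75368579) was covered to 40.6% and 12.9% at E14.5, 27.9% and 57.5% in neonates, 20.1% and 69.6% in adults and 52.2% and 28.9% after TAC, so that its replicates differed more than its points. The next were *Tpm1* with 31.6% and *Tcap* with 31.4%, both described below. At the other end, *Actc1* and *Acta1*, the cardiac and skeletal alpha-actins, had 1 peak each in the 8 lists, which is too few for the test across genes. *Actc1* was covered to 8.96% in E14.5 replicate 1 and *Acta1* to 31.3% in adult replicate 2, and in the other 7 lists each was listed at 0. *Fhl1*, a LIM domain protein encoded on the X chromosome, was the only member above its length class in no list, as were 41.1% of all genes. *Fhl1* was covered to 0.813% and 1.63%, 4.55% and 5.63%, 1.87% and 1.63%, and 1.05% and 0 in the order of points.

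**Figure D3:**
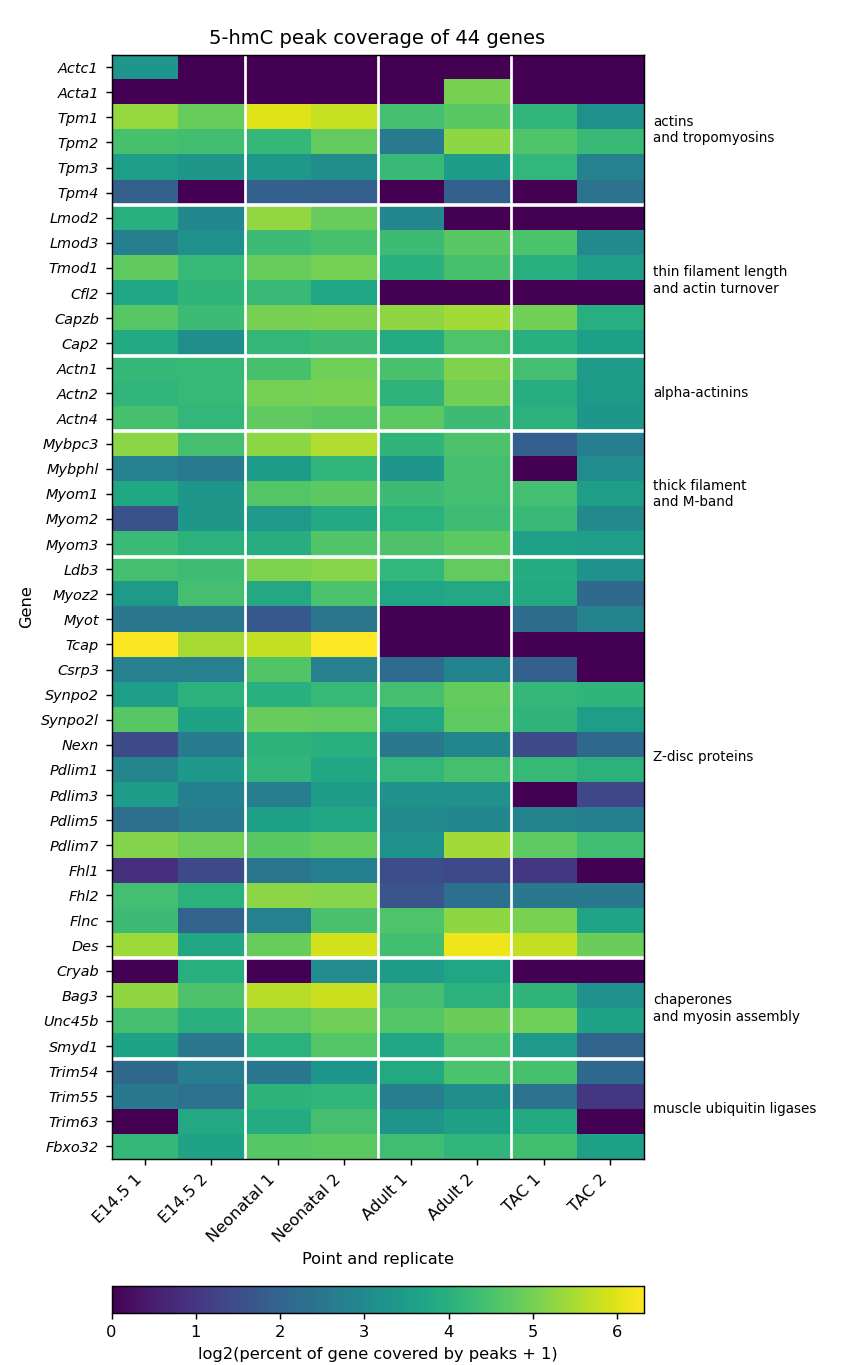
Coverage of each of the 44 genes in each of the 8 lists, as log2(percent + 1), grouped by role. More rows are brightest in the neonatal columns than at any other point; *Tcap* and *Cfl2* are at 0 in the adult and TAC columns, and *Actc1* and *Acta1* are at 0 in 7 of 8 columns.

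From E14.5 to neonatal CMCs, coverage was higher in both neonatal lists than in either E14.5 list for 26 of the 44 genes, or 59.1%, against 19.8% of all protein-coding genes. The reverse held for 1 gene, *Pdlim7*, against 5.04% of all genes. The median difference of the 44 genes was 7.52 percentage points, and that of all protein-coding genes, many of them without peaks, was 0. Among the 16111 genes with at least 2 peaks in the 8 lists it was 0.803 points. Among the genes with a peak in all 8 lists, 22 of 31 of the sarcomere genes were higher, or 71.0%, against 37.9% of 7333 genes. The 26 genes held 5 of the 6 that set thin filament length and actin turnover, all 3 alpha-actinins, 4 of the 5 of the thick filament and M-band, 7 of the 16 other Z-disc proteins, 3 of the 4 chaperones, 3 of the 4 ubiquitin ligases and 1 of the 6 actins and tropomyosins. When each list was divided by its mean over all genes, 17 were higher and 5 lower, against 12% and 15.1% of all genes. With equal numbers of peaks, here and below a single random draw that cuts the lists to the length of the shortest, 16 were higher and 1 lower, against 14.8% and 6.92%. By peak centres 11 were higher and 3 lower, against 12.2% and 3.63%.

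The largest differences were those of *Tpm1*, *Lmod2* and *Bag3*. *Tpm1* (chr9:67022593-67049213), the main tropomyosin of heart muscle, was covered to 38.8% and 27.6% at E14.5 and to 63.4% and 53.2% in neonatal CMCs. *Lmod2*, a leiomodin that elongates thin filaments, had 14.9% and 6.55% at E14.5 and 38.4% and 27.9% in neonatal CMCs. *Bag3*, a co-chaperone that clears damaged Z-disc proteins, had 37.3% and 22.4% at E14.5 and 49.0% and 54.7% in neonatal CMCs. For all 3 genes both neonatal values lay above both E14.5 values. In the fit across all genes these differences did not pass the test, with log2 differences of 0.81 ± 0.42 (SE; limma adjusted p = 0.873) for *Tpm1*, 1.62 ± 0.99 (limma adjusted p = 0.887) for *Lmod2* and 0.82 ± 0.45 (limma adjusted p = 0.887) for *Bag3*. *Tpm1* and *Bag3* were not higher in neonatal CMCs when peak centres were counted in place of covered bases, and in *Tpm1* the neonatal lists held 4 and 5 peaks against 8 and 6 at E14.5, so that fewer and wider peaks covered more of the gene. The widest neonatal peak in any of the genes, 11422 bp, was in *Tpm1*. *Pdlim7*, a broadly expressed PDZ and LIM protein, had 34.2% and 29.5% at E14.5 and 24.9% and 27.3% in neonatal CMCs. Its direction turned in the single random draw that cut all lists to the same number of peaks.

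No member passed limma's adjusted threshold of 0.05 in this comparison, in which 0.341% of the 16111 genes fitted were called higher and 0.137% lower. At an unadjusted p under 0.05, limma gave 8 members higher and 0 lower of the 42 that could be fitted, against 5.90% and 0.962% of all genes. *Nexn*, which encodes the actin-binding Z-disc protein nexilin, had the lowest p-value among the members, with 1.71% and 4.92% at E14.5 and 15.8% and 15.0% in neonatal CMCs (log2 difference 2.04 ± 0.52, limma adjusted p = 0.464).

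From neonatal to adult CMCs the genes differed in both directions. Coverage was lower in both adult lists than in either neonatal list for 20 genes, or 45.5%, against 16.6% of all protein-coding genes, and higher for 8, or 18.2%, against 12.6%. The median difference was -2.71 percentage points for the 44 genes, 0 for all genes and -0.171 for the genes with at least 2 peaks. Of the members with a peak in all 8 lists, 45.2% were lower and 22.6% higher, against 26.1% and 18% of all genes with a peak in all lists. The balance of the directions differed between settings. In the single random draw that cut all lists to the length of the shortest, 10 genes were lower and 13 higher, against 9.84% and 19.3% of all genes. With each list divided by its mean 23 were lower and 5 higher, against 20.9% and 12.1%. By peak centres 14 were lower and 3 higher, against 12.3% and 8.68%. Adult replicate 1 had the fewest peaks of all lists.

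*Tcap*, *Cfl2* and *Fhl2* fell, and they were the members called by limma on covered bases in this comparison. Among all genes fitted, 0.664% were called lower and 0.708% higher. *Fhl2* (chr1:43123071-43196761, 73.7 kb) encodes a LIM domain protein of the Z-disc that also acts as a transcriptional cofactor. It was covered to 20.3% and 15.7% at E14.5, 36.0% and 35.2% in neonates, 2.16% and 3.91% in adults and 4.73% and 4.74% after TAC. The neonatal values were thus the highest and the adult values the lowest, and neither overlapped those of another point. The neonatal to adult difference was -3.21 ± 0.35 on the log2(percent + 1) scale (SE, limma adjusted p = 0.0179). The call was kept with all lists cut to the same number of peaks (adjusted p = 0.0191), with each list divided by its mean (adjusted p = 0.0287) and with peak centres in place of covered bases (adjusted p = 0.00964). It was lost with neonatal replicate 1 or 2 left out (adjusted p = 0.0886 and 0.0870), with adult replicate 1 left out (adjusted p = 0.0529) and with the replicate block (adjusted p = 0.0677).

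The difference at *Fhl2* extended over nearly the whole gene. The neonatal lists held 27 and 20 peaks in it, the E14.5 lists 17 and 13, the lists of adults 2 and 3, and each TAC list 5. Regions common to both replicates numbered 21 in neonatal CMCs and covered 15.1 kb, against 10 regions and 6.39 kb at E14.5, 2 regions and 1.59 kb in adult and 1 region and 1.12 kb in TAC CMCs. Each adult and TAC list had a peak at the end of the gene, beside 1 to 4 others. The intronic window printed above, with 3 CpGs, is 1 of the places covered in neonatal CMCs alone.

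**Figure D4:**
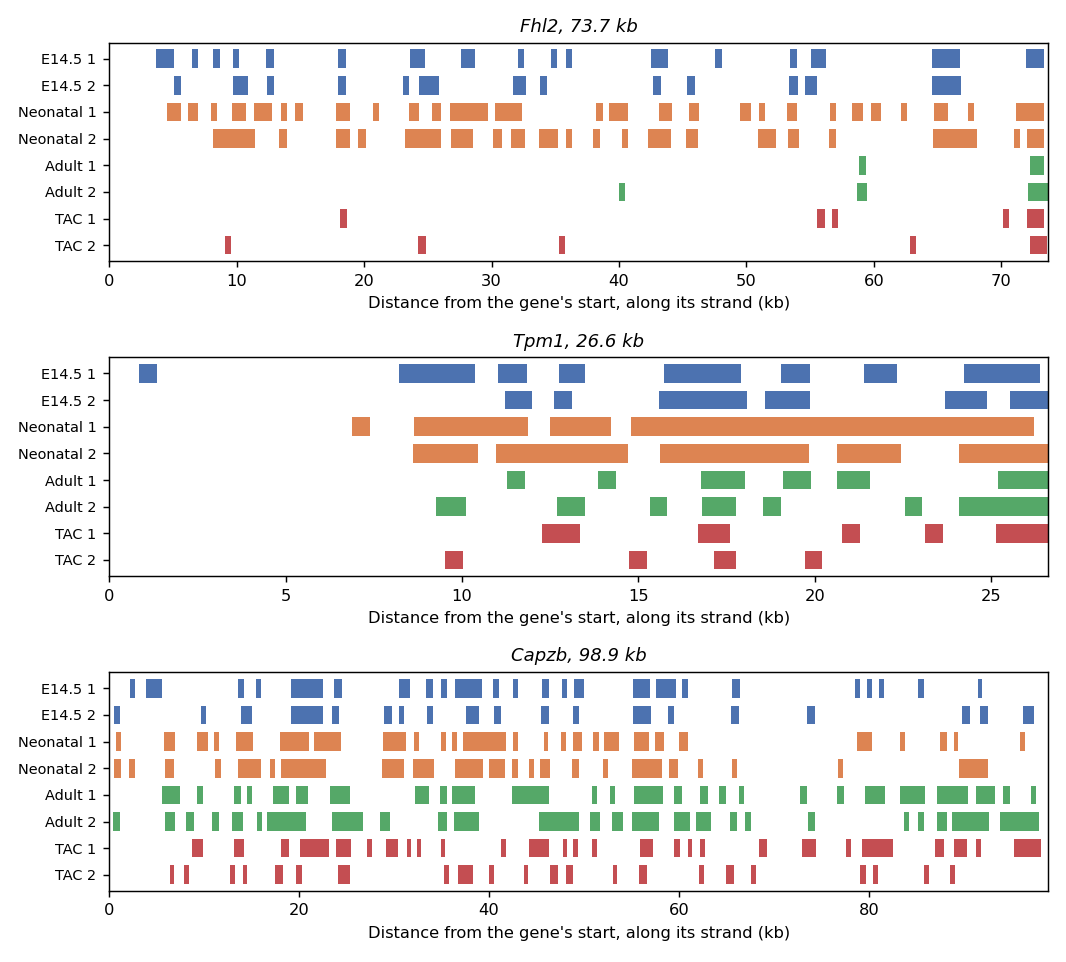
Peaks of each list along *Fhl2*, *Tpm1* and *Capzb*, by distance in kb from the start of the gene. Each bar is a peak; *Fhl2* is covered along its length at E14.5 and in neonatal CMCs and nearly bare in adult and TAC CMCs, *Tpm1* carries wide neonatal peaks, and *Capzb* is covered at all points.

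*Tcap* (chr11:98383811-98384953, 1.14 kb) encodes telethonin, which caps titin at the Z-disc. It was covered to 76.8% and 43.8% at E14.5 and to 52.0% and 78.4% in neonatal CMCs, and was listed at 0 in all 4 adult and TAC lists. *Cfl2* (chr12:54858817-54862877, 4.06 kb), the muscle cofilin that severs actin filaments, had 12.3% and 16.6%, then 18.3% and 12.3%, and was likewise listed at 0 in the adult and TAC lists. Each value above 0 in these short genes came from 1 peak, and no fold change is given against lists at 0. The neonatal to adult differences were called with limma adjusted p = 0.00931 for *Tcap* and limma adjusted p = 0.0147 for *Cfl2*. Both genes passed the filter of at least 2 peaks only through the E14.5 and neonatal lists, where they were high. With all 4 adult and TAC values at 0, replicates at those points had no spread, which makes the spread behind these p-values smaller. The calls therefore add no support to the listed values. With 1 kb added on each side, *Tcap* was covered to 37.2% and 28.0% at E14.5, 38.3% and 46.7% in neonates, 9.96% and 10.2% in adults and 5.98% and 12.98% after TAC, and its call was lost (adjusted p = 0.196). Both calls were also lost with all lists cut to the same number of peaks (adjusted p = 0.674 for *Tcap* and 0.699 for *Cfl2*) and on percent without the logarithm (adjusted p = 0.174 and 0.133). The cut was a single random draw. With 1 peak per list in these genes, its result turns on whether that peak was drawn. The call of *Cfl2* was lost with any neonatal or adult replicate left out (adjusted p = 0.0536 to 0.0607) and with the replicate block (adjusted p = 0.0526), whereas that of *Tcap* was kept in each of these (adjusted p = 0.0301 to 0.0475).

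Other members with lower adult than neonatal values did not pass the test. *Tpm1* went from 63.4% and 53.2% to 20.4% and 25.0% (log2 difference -1.33 ± 0.42, limma adjusted p = 0.407), with the reverse direction when peak centres were counted, and *Bag3* from 49.0% and 54.7% to 21.0% and 15.6% (log2 difference -1.46 ± 0.45, limma adjusted p = 0.399). *Lmod2* went from 38.4% and 27.9% to 6.55% and 0. *Mybpc3*, which encodes cardiac myosin-binding protein C, went from 36.8% and 46.2% to 16.6% and 22.2%. In each of these genes the adult replicates lay apart from the neonatal ones.

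The genes with higher adult values were *Flnc*, *Trim54*, *Capzb*, *Synpo2*, *Cryab*, *Myom2*, *Tpm3* and *Pdlim1*. *Flnc* (chr6:29433153-29461889), filamin C, which crosslinks actin at the Z-disc, had 5.84% and 21.6% in neonates and 22.9% and 36.6% in adult CMCs (log2 difference 1.27 ± 1.01, limma adjusted p = 0.718). The upper neonatal value nearly reached the lower adult one. *Trim54*, a ubiquitin ligase of the MuRF family, had 4.77% and 9.03% in neonates and 13.3% and 21.9% in adult CMCs (limma adjusted p = 0.696). *Capzb* (chr4:139192899-139291820), the beta subunit of the protein that caps actin filaments at the Z-disc, had 31.6% and 32.2% in neonates and 37.4% and 42.2% in adult CMCs (limma adjusted p = 0.809). No member passed the test in this direction.

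Muscle genes and broadly expressed genes are given separately. Of the 44 genes, 7 are expressed broadly across tissues (*Tpm3*, *Tpm4*, *Actn1*, *Actn4*, *Pdlim1*, *Pdlim7* and *Capzb*) and 37 mainly in muscle or in muscle and other tissues. Among the 37, coverage was lower in both adult than in both neonatal lists for 20 and higher for 5, with a median difference of -4.80 percentage points. Among the 7, it was lower for 0 and higher for 3, with a median difference of 2.21 points. Over all protein-coding genes 16.6% were lower and 12.6% higher, so that few lower genes are to be looked for among 7. The balance over all 44 genes turned with equal numbers of peaks, as given above, and the 2 sets were not read in that setting. The mean of the 7 broadly expressed genes over the 4 points was 15.7%, 19.3%, 21.3% and 14.7%, and that of the 37 was 13.8%, 22.0%, 14.8% and 9.22%. With 7 genes in the smaller set, whether the sets differ was not tested.

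From adult to TAC CMCs, 19 genes were lower in both TAC lists than in either adult list, or 43.2%, against 18.4% of all protein-coding genes, and 2 were higher, against 4.63%. Among genes with a peak in all 8 lists the shares that were lower were closer, at 45.2% of the 31 members and 33.4% of all such genes. The median difference of the 44 genes was -5.11 percentage points, that of all genes 0 and that of the genes with at least 2 peaks -1.21. With each list divided by its mean over all genes, 13 were lower and 3 higher, while over all genes the balance turned to 9.35% lower and 11.7% higher. Without TAC replicate 2, which stood apart, 19 were lower and 7 higher, against 24% and 15.9% of all genes. Without TAC replicate 1, 33 were lower and 3 higher, against 33.9% and 14.7% of all genes. Without adult replicate 1, 30 were lower and 2 higher, against 38.4% and 8.3%. By peak centres 11 were lower and 2 higher, against 11.1% and 3.95%.

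The largest differences were those of *Capzb*, *Mybpc3* and *Myom3*. *Capzb* went from 37.4% and 42.2% in adult to 30.3% and 14.9% in TAC CMCs (log2 difference -0.87 ± 0.40, limma adjusted p = 0.744). *Mybpc3* (chr2:91118144-91136516) went from 16.6% and 22.2% to 2.73% and 5.45% (log2 difference -2.05 ± 0.44, limma adjusted p = 0.249). *Myom3*, a myomesin of the M-band, went from 22.3% and 25.2% to 11.1% and 10.54% (log2 difference -1.06 ± 0.33, limma adjusted p = 0.567). In *Mybpc3* and *Myom3* the TAC replicates lay close together, so that the lower value was not that of TAC replicate 2 alone, whereas in *Capzb* TAC replicate 2 was far below TAC replicate 1. All 3 alpha-actinins were among the 19, with 7 of the other Z-disc proteins, 3 of the thick filament and M-band and 2 of the chaperones.

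*Myot* and *Fhl2* were the genes with higher TAC values. *Myot*, which encodes the Z-disc protein myotilin, was covered to 4.63% and 4.63% at E14.5, 2.31% and 4.63% in neonatal and 3.72% and 6.04% in TAC CMCs, and was listed at 0 in both adult lists. It had 10 peaks over the 8 lists, and the difference from adult to TAC CMCs did not pass the test (limma adjusted p = 0.147). The difference of *Fhl2*, from 2.16% and 3.91% to 4.73% and 4.74%, was small beside its neonatal level (log2 difference 0.54 ± 0.35, limma adjusted p = 0.753). No member was called by limma between adult and TAC CMCs, where 0.608% of all genes were called lower and 0.23% higher. At an unadjusted p under 0.05, limma gave 3 members lower and 1 higher, against 5.35% and 1.63% of all genes.

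Across the whole span from E14.5 to adult CMCs, which shares its lists with the comparisons above, 16 genes were higher in both adult lists, or 36.4%, against 22.2% of all genes, and 6 were lower, or 13.6%, against 13.9%. The share of lower genes was thus that of all genes. With each list divided by its mean, 9 were higher and 12 lower, against 15% and 23% of all genes, and with equal numbers of peaks 24 were higher and 5 lower, against 25.2% and 9.73%. The largest differences upward were those of *Flnc*, from 19.1% and 3.02% to 22.9% and 36.6%, of *Capzb*, from 24.6% and 19.1% to 37.4% and 42.2%, and of *Lmod3*, a leiomodin needed for thin filaments of skeletal muscle, from 5.63% and 7.96% to 19.0% and 25.0%. None of these passed the test (limma adjusted p = 0.441, 0.359 and 0.252). *Tcap*, *Cfl2* and *Fhl2* fell again, with limma adjusted p = 0.00728, 0.0136 and 0.0485, where 0.583% of all genes were called lower and 1.14% higher. For *Tcap* and *Cfl2* the limit given above holds here too, since all their peaks lay in the E14.5 and neonatal lists. The call of *Cfl2* in this span was lost in 7 of 18 alternatives, among them equal numbers of peaks (adjusted p = 0.566) and each E14.5 or adult replicate left out (adjusted p = 0.0527 to 0.0704). That of *Tcap* was lost in 3, with equal numbers of peaks, 1 kb added on each side and percent without the logarithm (adjusted p = 0.224, 0.188 and 0.161). The call of *Fhl2* was lost in 12 of 18 alternatives, among them each left-out replicate (adjusted p = 0.0510 to 0.139).

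**Figure D5:**
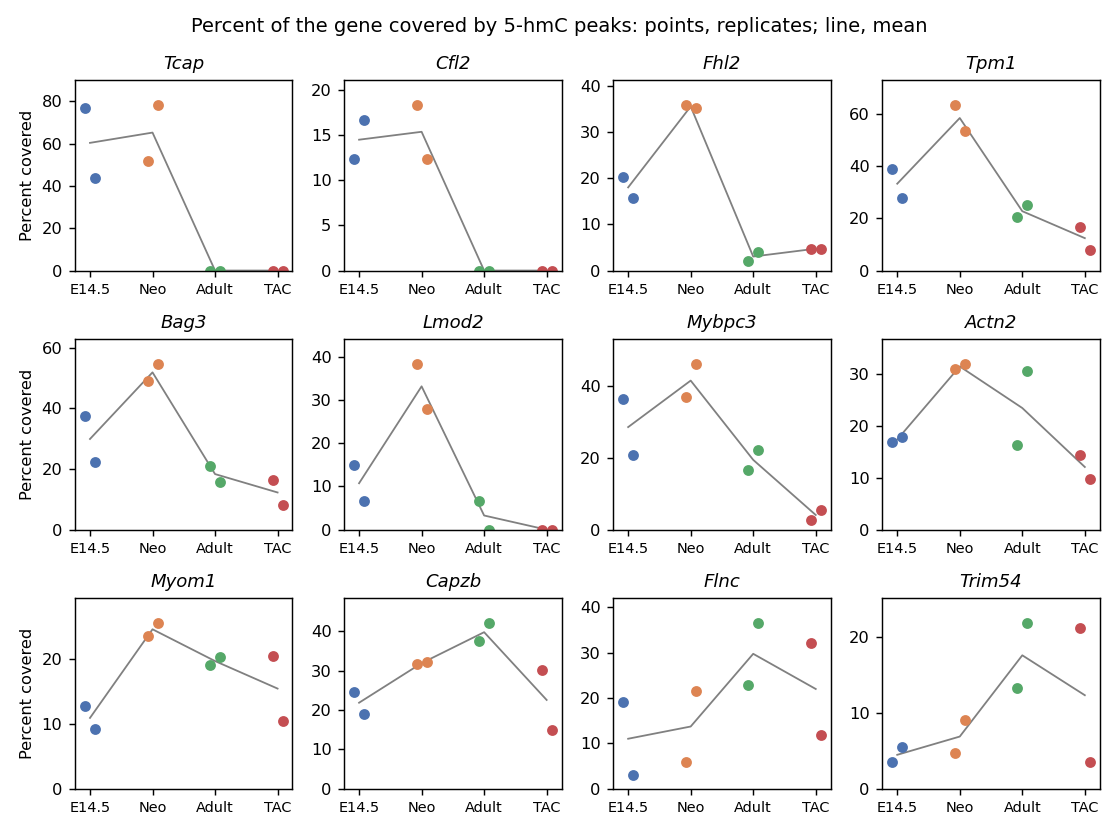
Percent of the gene covered by peaks in each replicate (dots) with the mean of each point (line), for 12 genes on separate scales from 0. *Tcap*, *Cfl2* and *Fhl2* drop from neonatal to adult CMCs, *Capzb*, *Flnc* and *Trim54* have their highest mean in adult CMCs, and the TAC replicates of these last 3 lie far apart.

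Differences between paralogues were not tested, and their values are given side by side. Of the tropomyosins, *Tpm1* had its highest values in neonatal CMCs. *Tpm2* had 21.4% and 20.1%, 17.4% and 26.6%, 5.10% and 37.1%, and 22.9% and 18.02% in the order of points, with the adult replicates farthest apart. *Tpm3*, one of the broadly expressed tropomyosins, had 10.6% and 9.08%, 9.29% and 7.68%, 18.2% and 10.1%, and 17.0% and 5.86%. *Tpm4*, the other, was covered to at most 4.30% in any list and had 5 peaks in all. All 3 alpha-actinins were higher in both neonatal than in both E14.5 lists, as were 19.8% of all protein-coding genes. All 3 were lower in both TAC than in both adult lists, as were 18.4%. The general level of the lists moved in the same directions. For *Actn1* the TAC and adult values nearly met, at 20.5% and 21.4% in the replicates 1. *Actn2*, the sarcomeric form, had 16.9% and 17.8%, 30.9% and 31.9%, 16.3% and 30.5%, and 14.3% and 9.84%. *Actn1* had 17.6% and 17.6%, 21.3% and 29.1%, 21.4% and 33.4%, and 20.5% and 10.1%, and *Actn4* 21.2% and 17.3%, 26.4% and 24.9%, 25.2% and 18.9%, and 15.8% and 9.08%. Only *Actn2* was lower in both adult than in both neonatal lists, and narrowly, with 30.5% in adult replicate 2 against 30.9% in neonatal replicate 1.

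Of the myomesins, which crosslink thick filaments in the M-band, *Myom1* had 12.7% and 9.17%, 23.6% and 25.6%, 19.0% and 20.4%, and 20.4% and 10.49%. *Myom2*, the isoform of mature fast and cardiac muscle, had 1.98% and 9.07%, 9.58% and 13.5%, 15.4% and 19.4%, and 18.1% and 6.84%, so that its means stood in the order E14.5, neonatal and adult without overlap of neighbouring points. *Myom3* had 18.8% and 15.6% and then 14.4% and 23.2% before the adult and TAC values given above. Among the MuRF ligases, *Trim55* had 4.91% and 4.16%, 16.0% and 16.9%, 5.53% and 7.81%, and 4.16% and 1.04%, a neonatal maximum. *Trim63* had 0 and 13.02%, 13.9% and 20.8%, 8.70% and 11%, and 13.3% and 0, and *Trim54* had its maximum in adult CMCs at 13.3% and 21.9%, with 3.502% and 5.47% at E14.5 and 21.2% and 3.48% in TAC CMCs. *Fbxo32*, which encodes the muscle ligase atrogin-1 of another family, had 17.6% and 11.5%, 24.6% and 25.2%, 19.9% and 16.7%, and 20.2% and 10.8%.

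Over all 4 points, each gene was also tested by the exact permutation test over all ways to divide the 8 lists into 4 pairs, on the side of a larger spread between pairs (one-sided), with a smallest possible p of 0.00952. *Tpm1*, *Pdlim5* and *Fhl2* reached this smallest p, and *Bag3*, *Trim55*, *Mybpc3*, *Ldb3* and *Fhl1* had an exact p under 0.05 as well. These are 8 of the 42 members tested, beside 7.73% of the 16111 genes. After adjustment over all genes the lowest p was 0.559, so that none passed. *Pdlim5*, a Z-disc protein that anchors kinases, had 3.87% and 5.15%, 10.8% and 12.6%, 7.06% and 6.58%, and 6.13% and 5.55%, and *Ldb3*, which encodes cypher and binds alpha-actinin, had 20.9% and 19.4%, 32.9% and 34.7%, 17.1% and 26.9%, and 14.1% and 8.43%. In all 8 genes the neonatal mean was the highest of the 4 points.

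Regions covered in both replicates were compared between points, beside the same shares over all genes. Of the 262 regions of the 44 genes that both neonatal replicates covered, 106, or 40.5%, were also covered in both E14.5 replicates and 88, or 33.6%, in both adult replicates, while 91, or 34.7%, had no adult peak. Over all protein-coding genes the corresponding shares were 41.3%, 31.6% and 29.7%. Of the 170 common regions at E14.5, 111, or 65.3%, were covered in both neonatal replicates, against 52.9% over all genes. Of the 223 common adult regions, 43, or 19.3%, were covered in both TAC replicates, against 16.2% over all genes, and 55, or 24.7%, had no TAC peak, against 35.8%. Base pairs covered in both replicates made up 0.293 of those covered in either at E14.5, 0.366 in neonates, 0.293 in adults and 0.0993 after TAC, against 0.230, 0.275, 0.229 and 0.0688 over all genes. The TAC replicates thus shared the smallest part of their covered bases, in the sarcomere genes and elsewhere. Of all bases of the 44 genes, 49.0% lay under no peak of any list and 0.137% under a peak of all 8, the widest such stretch being that of *Capzb* from which a window was printed above.

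Peaks in the 44 genes were wider on average than all peaks of the same list, inside and outside genes. Peaks in other genes were not read separately. Their mean width was 884 and 831 bp at E14.5, 987 and 1138 bp in neonates, 901 and 1078 bp in adults and 882 and 668 bp after TAC, against 675 and 685, 711 and 772, 731 and 801, and 715 and 606 bp over all peaks. Gene spans overlapped another protein-coding gene in *Tmod1*, *Actn4* and *Cryab*, over 1.68%, 0.489% and 19.4% of the span, so that peaks of *Cryab* can belong to *Hspb2* as well.

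A list of 22 other sarcomere genes, among them myosins, troponins, titin and obscurin, was read beside the 44. Coverage averaged 25.7% and 21.6% at E14.5, 29.2% and 33.0% in neonates, 18.6% and 21.3% in adults and 17.9% and 9.57% after TAC, above the mean of the 44 genes in each list. From E14.5 to neonatal CMCs 9 of the 22 were higher and 2 lower by both replicates, against 19.8% and 5.04% of all genes. From neonatal to adult 5 were higher and 11 lower, against 12.6% and 16.6%. From adult to TAC 3 were higher and 6 lower, against 4.63% and 18.4%. From E14.5 to adult 8 were higher and 7 lower, against 22.2% and 13.9%. Limma called 0 of the 22 from E14.5 to neonatal and from adult to TAC CMCs. It called 1 lower from neonatal to adult, against 0.664% of all genes, and 1 lower from E14.5 to adult, against 0.583%.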

How the data were processed

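5-hmC was mapped by hMeDIP in 8 CMC samples, 2 replicates at each of 4 points. The authors aligned reads to mm10 with BWA 0.7.4-r385, marked duplicates with Picard, removed reads of mapping quality under 10, and called peaks with HOMER in histone mode against input DNA, in each replicate separately. The deposited peak lists hold positions and a score. The deposited score is 1 for each peak, so that the lists give neither peak strength nor the depth behind a peak.

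Peaks were merged within a list and intersected (bedtools 2.31.1; Python 3.11.15, numpy 2.4.6, pandas 2.3.3) with the spans of 21000 protein-coding genes of curated RefSeq transcripts (GRCm38.p6, the same coordinates as mm10). All 44 members matched. limma 3.58.1 (R 4.3.3) was fitted with a trend on log2(percent + 1), over all 4 points, to the 16111 genes with at least 2 peaks in the 8 lists, with Benjamini-Hochberg adjustment over all genes and a threshold of 0.05. Of the members, 42 were fitted, and *Actc1* and *Acta1* had too few peaks. A gene counts as higher or lower when its replicates do not overlap. For a pair of points the exact permutation test cannot reach 0.05. The script was tested on simulated data.

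Members and lists were chosen with earlier results of these data known. Genes given in full were those called by limma, the 3 largest differences in each direction per comparison among genes without overlap, the 3 highest means and the paralogue families. *Nexn*, *Pdlim5*, *Ldb3*, *Fhl1* and *Fbxo32* were added after their values were seen. Windows came from regions of the leading genes covered in both replicates of the higher point and under no peak of the lower point. The next gene was taken where none was eligible, and windows of genes called by limma were added after values were seen. The *Capzb* window found in all lists was picked for its number of lists. Whether same-numbered replicates share a batch is not stated. Knockdown samples and input libraries were not used here.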

Additional observations from a re-analysis of the deposited data

How the results depend on the processing

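The score gives no peak strength, so a stricter peak threshold was not run. The part of each list up to its middle line, classes of CpG density and the omission of genes under 5 kb were chosen after seeing the data. Equal numbers of peaks stands for a single random draw, which was not repeated. Causes of the changes below were not tested. Members called by limma from neonatal to adult CMCs numbered 3, and 1 with equal numbers of peaks, with percent without logarithm or with the replicate block, and 1 to 3 with a replicate left out. From E14.5 to adult CMCs they numbered 3, 4 by peak centres, with *Myot* beside the others, 2 with the replicate block, and 1 with equal numbers of peaks, with 1 kb added to each side or with each list up to its middle line, 0 with percent without logarithm, and 1 to 2 with a replicate left out. Correlations of replicate deviations between points ran from 0.0176 to 0.230, so the numbers were not taken as pairs.

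Genes without overlap, in either direction, numbered 17 from E14.5 to neonatal CMCs with equal numbers of peaks and 14 by peak centres, 17 from neonatal to adult and 13 from adult to TAC CMCs by peak centres, and 26 to 36 from adult to TAC CMCs with a replicate left out. Their directions and the shares of all genes, which moved as well, stand beside the results above. The mean difference of the 44 genes from the length-standardised level was 0.860, 1.12, 0.616 and 0.453 peak centres per 10 kb at E14.5, neonatal, adult and TAC. It was 4.40, 9.13, 3.67 and 1.33 points with bases common to both replicates, and in neonatal CMCs 9.20 points with equal numbers of peaks and 12.5 with lists scaled to their mean.

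The direction turned from E14.5 to neonatal CMCs for *Bag3* with equal numbers of peaks (limma log2 difference -0.14, adjusted p = 1) and by peak centres (-0.05, adjusted p = 1), for *Pdlim7* with equal numbers of peaks (0.83, limma adjusted p = 0.887) and for *Tpm1* by peak centres (-0.60, limma adjusted p = 0.810), and from neonatal to adult CMCs for *Tpm1* by peak centres (0.38, limma adjusted p = 0.714). Of the alternatives for single genes, 372 kept direction and side of the threshold and 37 lost the call, all of them for *Tcap*, *Cfl2* and *Fhl2*. The other named results were not called to begin with and could not lose a call. From neonatal to adult CMCs the call was lost in 3 of 18 alternatives for *Tcap*, 8 for *Cfl2* and 4 for *Fhl2*. From E14.5 to adult CMCs it was lost in 3, 7 and 12.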
